A study of Homo sapiens with 12 samples.

Results

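The response to a STAT3 siRNA was compared between OE33, a line of esophageal adenocarcinoma cells, and OE21, a line of esophageal squamous carcinoma cells. The measure was an interaction over 12 arrays: the siRNA effect in OE33 (siRNA minus Control) minus the siRNA effect in OE21 (siRNA minus Control). It was described across the 9840 genes whose probe was detected (detection p under 0.01) on at least 3 arrays of OE33 and on at least 3 arrays of OE21, of 20045 genes with a probe of 1 symbol. A further 783 genes met that limit in OE33 and not in OE21, and 1328 in OE21 and not in OE33, and are left out because only the effect in a single line was measured.

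The 4 groups held 3 arrays each: OE33 siRNA, OE33 Control, OE21 siRNA and OE21 Control. The siRNA groups were transfected with a pool of 4 STAT3 sequences and the Control groups with a negative control siRNA, each at 100 nM and given in 2 rounds. The RNA read on the arrays was from 72 h after the first round. All groups therefore carried a transfected siRNA, and untreated cells are not analysed here. The carrier was DharmaFECT for OE33 and siPORT NeoFX for OE21, and therefore line and reagent cannot be told apart in any difference of effects. The replicates were independent experiments according to the design text, and each line is a single cell line, so p-values measure the spread between these cultures.

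STAT3 is a transcription factor that is phosphorylated by Janus kinases at cytokine receptors that share the subunit IL6ST, moves to the nucleus and induces, among others, its own gene and the feedback inhibitor SOCS3. Interferons signal through Janus kinases as well, and many interferon-stimulated genes carry a promoter element called ISRE. Small interfering RNA acts by guiding Argonaute proteins to a matching mRNA, and double-stranded RNA in the cytosol can also be read by the sensors RIG-I and MDA5, which induce interferon and NF-kB genes.

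Between 38.1% and 40.5% of probes were detected per array. Arrays correlated at 0.959 to 0.992 across probes within OE33, at 0.964 to 0.992 within OE21 and at 0.836 to 0.879 between the lines. OE33 Control 2 stood apart: on the first component of the OE33 arrays (60.6% of the variance) it lay at -0.89, against 0.00 to 0.27 on the other OE33 arrays. On the first component of the OE21 arrays (52.8%), siRNA 1, siRNA 2 and Control 1 lay at 0.33 to 0.51, and siRNA 3, Control 2 and Control 3 at -0.44 to -0.37, a division that crosses the siRNA label. Counts of calls and list medians that move by over 1.5 times without a single array are given with and without it. The keratin KRT8 and the intestinal factor CDX2 were detected on all OE33 arrays and on 0 OE21 arrays, and the basal keratins KRT5 and KRT14 and the desmosomal cadherin DSG3 on 0 OE33 arrays and on all OE21 arrays. The columnar KRT18, KRT19, EPCAM, AGR2 and FOXA2 and the squamous KRT13 and KRT15 were detected on all 12 arrays, at levels that differed by line. On Control arrays AGR2 averaged 10.35 in OE33 and 5.97 in OE21, KRT19 14.14 and 11.28, and EPCAM 13.23 and 11.42. In the same order KRT18 averaged 8.79 and 7.26, KRT13 5.66 and 10.86, and KRT15 10.52 and 11.04. FOXA2 went the other way from these columnar markers. It was dimmer in OE33 (6.93 on siRNA and 6.80 on Control) than in OE21 (8.38 on siRNA and 8.94 on Control). The intestinal markers CDH17, KRT20 and TFF3 were detected on 0 arrays of either line. Of 21 measured markers of lymphocytes, myeloid cells, fibroblasts and endothelium, 15 in OE33 and 13 in OE21 were detected on 0 arrays, PTPRC, CD3E, LUM and PECAM1 among them. On at least 3 arrays of the line, 3 of the 21 were detected in OE33 and 6 in OE21. The myeloid markers CD14 and CD68 were detected on all 12 arrays and the endothelial VWF on all OE21 arrays. In OE21, CSF1R was detected on 3 siRNA arrays and 1 Control array, COL1A2 on 2 and 3, and COL1A1 on 2 and 1. In OE33, CD2 was detected on 1 siRNA array and 2 Control arrays. CD68 averaged 10.32 on OE33 siRNA and 10.39 on OE33 Control, and 11.80 on OE21 siRNA and 11.31 on OE21 Control, and its part in the results was not tested.

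The estimated depletion of the target was smaller in OE33 than in OE21. On its brightest probe STAT3, which lies on chromosome 17, measured 9.10, 8.87 and 9.05 log2 units on the OE33 siRNA arrays, against 9.04, 10.26 and 9.36 on OE33 Control. In OE21 it measured 6.76, 6.77 and 7.47 on the siRNA arrays, against 9.23, 8.90 and 9.24 on Control. The OE21 groups were separated by more than 1 log2 unit, the OE33 groups overlapped, and OE33 Control 2 was the highest of all arrays. The siRNA effect was -0.55 in OE33 and -2.12 in OE21 (SE 0.28 each), and the difference of effects was 1.58 (SE 0.40, 95% confidence interval 0.70 to 2.46). In these units 68.4% of the Control level was left in OE33 (95% interval 44.4% to 105%) and 22.9% in OE21 (14.9% to 35.3%). The difference had an unadjusted p of 0.00216 and a limma adjusted p of 0.606 over all genes, so it did not pass.

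**Figure D1:**
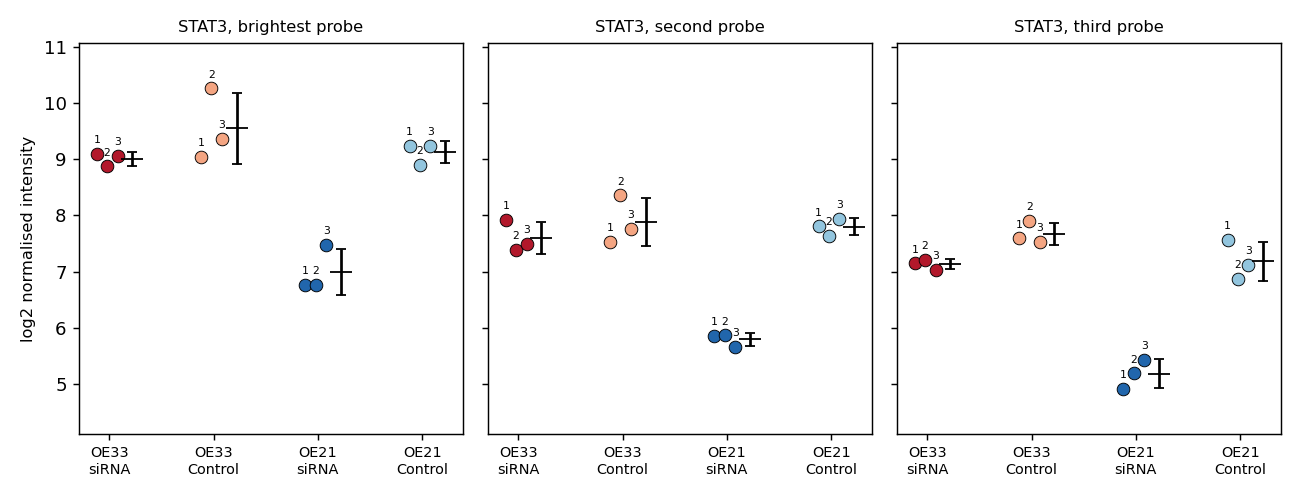
Log2 normalised intensity of the 3 STAT3 probes (vertical axis) on each of the 12 arrays by group, with replicate numbers; points are arrays, and the bar beside each group is the mean with its SD (n = 3). On every probe the OE21 siRNA arrays lie below all other groups, while the OE33 groups are close together and overlap on the first and second probes.

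The other STAT3 probes gave differences of 1.71 (SE 0.30) and 1.46 (SE 0.28), with limma adjusted p of 0.404 for each when all 16252 detected probes were tested. By the second probe 82.1% of STAT3 was left in OE33 and 25.02% in OE21, and by the third 68.5% was left in OE33 and 24.98% in OE21. Only on the third probe did all 3 OE33 siRNA arrays lie below all 3 OE33 Control arrays, at 7.15, 7.21 and 7.04 against 7.59, 7.90 and 7.54. Without OE33 Control 2 the OE33 effect on the brightest probe was -0.19, with 87.5% left, and the difference was 1.93, with a limma adjusted p of 0.277.

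Across all genes, the difference of effects was called for 0 of 9840 genes at a limma adjusted p under 0.05 (0% of genes tested). At an unadjusted p under 0.05 there were 649 genes, 6.6% of those tested, of which 311 were higher (3.16%) and 338 lower (3.43%) in OE33. With array weights limma called 478 genes. The largest weights were 5.01 for OE33 Control 3 and 4.67 for OE21 siRNA 1, and the lowest was 0.155 for OE33 Control 2. None of the other settings tried called a gene. The count at an unadjusted p under 0.05 was 1084 without OE21 siRNA 3, 430 without OE21 siRNA 1, and 425 without either OE21 Control 3 or OE33 siRNA 3.

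Effects had an SD across genes of 0.22 log2 units in OE33 and 0.30 in OE21, and 4 genes in OE33 against 65 in OE21 had an effect over 1 in size. Of the 649 genes at an unadjusted p under 0.05, 510 had the larger effect in OE21, as did 60.6% of all genes. Effects of the lines correlated at r = 0.038 and rho = 0.025 across the 9840 genes, which are not independent replicates, and 51.1% of genes had the same sign in both.

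**Figure D2:**
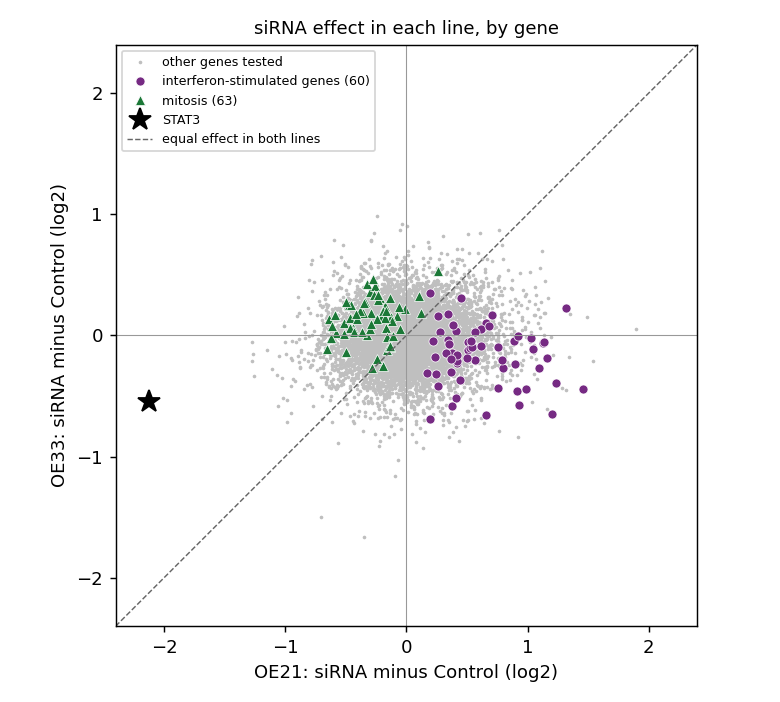
siRNA effect (siRNA minus Control, log2) in OE33 on the vertical axis and in OE21 on the horizontal axis; each point is 1 of 9840 genes, with interferon-stimulated genes (60), mitosis genes (63) and STAT3 marked and the line of equal effects dashed. Interferon-stimulated genes lie to the right of the dashed line in 59 of 60 cases, mitosis genes to its left in 62 of 63, and the spread is wider along the OE21 axis (SD 0.30) than along the OE33 axis (0.22).

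In the same fit limma called 0 genes for the OE33 effect (261 at an unadjusted p under 0.05, 2.65%) and 15 genes for the OE21 effect (0.152%), 8 lower and 7 higher. Since these genes were chosen by their OE21 effect, a smaller effect in OE33 follows in part from the choice. All 15 had a smaller effect in OE33 (60.6% of all genes did), between 0.003 and 0.55 in size, and 12 the same sign (51.1%). Named after their values were seen, they were STAT3, DENR, IDE, C8orf33, FEZ2, MAEA, GLO1 and DEPDC1B, which were lower in OE21 siRNA, and CDA, AGFG1, ITGA5, CHPF, ALCAM, LCOR and MTMR11, which were higher. CHPF, which takes part in chondroitin chain synthesis, had effects of 0.18 in OE33 and 1.35 in OE21, and cytidine deaminase CDA had -0.01 and 0.98. CDA did not meet the limit of detection on at least 2 of 3 arrays of every group, so part of its values lay near background. The count of 15 was 64 without OE33 Control 2, 48 without OE21 siRNA 3, and 24 without OE21 Control 2. It was 0 without OE21 Control 3, OE21 siRNA 1 or OE21 siRNA 2, 3 without OE21 Control 1 or OE33 siRNA 2, and 5 without any of the other 4 arrays.

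The 10 genes with the smallest p for a higher effect in OE33 had an OE21 effect below 0, which follows in part from their choice by the difference. IDE, the insulin-degrading protease, measured 9.04, 9.25 and 9.14 on OE33 siRNA and 9.24, 9.10 and 9.18 on OE33 Control. In OE21 it measured 6.93, 6.97 and 6.97 on siRNA and 7.92, 7.75 and 7.86 on Control. The OE21 groups were apart and the OE33 groups overlapped, which gave a difference of 0.85 (SE 0.16, limma adjusted p = 0.374). GLO1, the glyoxalase that detoxifies methylglyoxal, followed the same pattern with 12.06, 12.01 and 12.09 on OE33 siRNA, 12.14, 11.64 and 12.14 on OE33 Control, 9.11, 9.35 and 9.36 on OE21 siRNA, and 10.20, 10.17 and 10.49 on OE21 Control. Its difference was 1.09 (SE 0.23, limma adjusted p = 0.374).

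DENR, a factor of translation reinitiation, had the smallest p of all. It measured 10.52, 10.54 and 10.60 on OE33 siRNA against 10.87, 10.79 and 10.64 on Control, and 9.56, 9.73 and 9.78 on OE21 siRNA against 11.04, 10.75 and 11.11 on Control. Both lines were separated downward, by -0.21 in OE33 and -1.27 in OE21, and the difference was 1.06 (SE 0.19, limma adjusted p = 0.374). A second DENR probe, however, gave effects of -0.09 and 0.12 and a difference of -0.21. The others of these 10 were C8orf33 (1.11), MAEA, a subunit of the CTLH ubiquitin ligase (1.22), CLOCK, the circadian transcription factor (1.06), PTGES3, the HSP90 co-chaperone p23 (1.00), BLMH, bleomycin hydrolase (0.83), the olfactory receptor gene OR9A4 (0.77) and HNRNPCL3 (0.94). Second probes of C8orf33 and MAEA had the same sign (1.28 and 1.24), and that of CLOCK did not (-0.29). HNRNPCL3 belongs to a family of near-identical copies that a probe may not tell apart.

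The 10 genes with the smallest p for a lower effect in OE33 had an OE21 effect above 0, which again follows in part from the choice. ITGA5, the alpha subunit of the fibronectin receptor, measured 7.04, 6.88 and 6.51 on OE33 siRNA and 6.80, 7.08 and 7.09 on OE33 Control. In OE21 it measured 9.28, 9.13 and 8.89 on siRNA and 7.56, 8.20 and 7.503 on Control. Its difference was -1.52 (SE 0.29, limma adjusted p = 0.374), with overlap in OE33 and none in OE21. HSPA5, the endoplasmic reticulum chaperone BiP, had a difference of -0.79 (SE 0.17, limma adjusted p = 0.478), with effects of -0.10 in OE33 and 0.69 in OE21.

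CCL20, a chemokine ligand of CCR6, was the exception among these 10 in that the OE33 effect was the larger, at -0.76 against 0.41 in OE21. It measured 5.08, 4.90 and 5.18 on OE33 siRNA, all below the 5.78, 5.95 and 5.71 on OE33 Control, and in OE21 the groups overlapped. The glycosyltransferase A4GALT (-1.72), the helicase HELZ2 (-1.20), MTMR11 (-1.13), the lysosomal transporter SLC15A3 (-1.75), TRANK1 (-1.77), IRF7 (-1.51) and OASL (-1.62) made up the rest. Of the 10, 2 belong to the list of interferon-stimulated genes, as do 60 of the 9840 genes tested. Several were smaller in the authors' normalised values, at -0.64 for A4GALT, -0.37 for CCL20, -0.77 for TRANK1 and -1.09 for SLC15A3. Of the 10 higher in OE33, IDE (0.54), CLOCK (0.65), HNRNPCL3 (0.45) and OR9A4 (0.35) were smaller there by over 1.5 times. CCL20 and A4GALT were each detected on only 2 of 3 OE21 Control arrays.

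**Figure D3:**
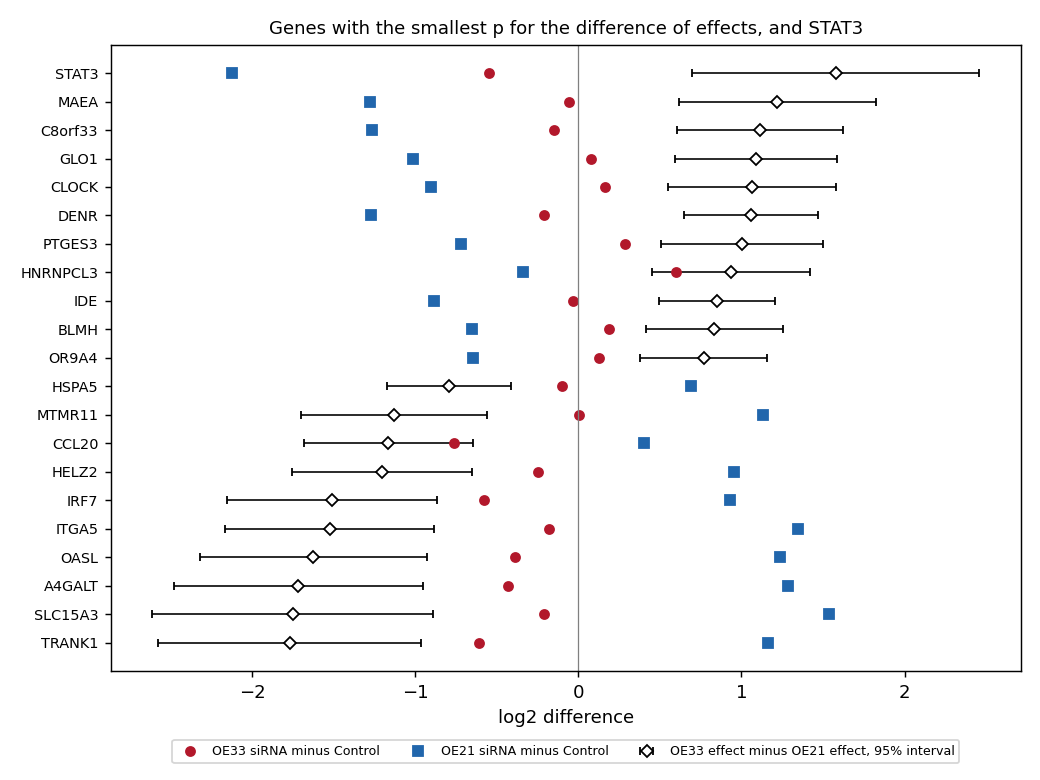
siRNA effects on STAT3 and the 20 genes with the smallest p for the difference, 10 in each direction: OE33 effect (circles), OE21 effect (squares) and their difference with its 95% confidence interval (diamonds), in log2 units on the horizontal axis. The OE21 squares lie farther from 0 than the OE33 circles for all genes shown except CCL20 and HNRNPCL3, and all limma adjusted p-values are 0.374 or higher.

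Some genes were separated in both lines and in opposite directions. The siRNA arrays lay below Control in OE33 and above it in OE21 for 24 genes (0.244% of genes tested), and the other way for 25 (0.254%). IRF7, the interferon regulatory factor that amplifies interferon production, measured 8.55, 8.41 and 8.38 on OE33 siRNA, below the 8.76, 9.19 and 9.11 on OE33 Control. In OE21 it measured 11.59, 11.67 and 11.19 on siRNA, above the 10.997, 10.20 and 10.47 on Control. Its second probe gave effects of -0.07 in OE33 and 1.07 in OE21 and a difference of -1.13. OASL, an antiviral protein of the oligoadenylate synthetase family, measured 5.29, 5.62 and 5.54 on OE33 siRNA and 5.83, 5.98 and 5.81 on OE33 Control. In OE21 it measured 10.93, 10.98 and 10.22 on siRNA and 9.85, 9.12 and 9.47 on Control. Both genes also stood far higher in OE21 than in OE33 in either treatment.

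SLC15A3, TRANK1, the zinc finger gene ZBTB43 (-1.55) and SEC61A2, a translocon subunit (-1.14), were the others of the 6 largest in this direction. ZBTB43 was at -1.07 without OE33 Control 2, where it measured 8.78 against 7.27 and 7.41 on the other OE33 Control arrays. In the other direction the largest were PSRC1, a spindle-associated protein (1.39), HNRNPCL3, ANKRD46 (0.90), SHQ1, an assembly factor of H/ACA ribonucleoproteins (0.77), the arginine methyltransferase PRMT7 (0.72) and WDHD1, a replisome protein (0.71). WDHD1 was at 0.38 without OE33 Control 2. In the authors' normalised values WDHD1 was at 0.32, PRMT7 at 0.37, SHQ1 at 0.42, ANKRD46 at 0.47, PSRC1 at 0.62 and SEC61A2 at -0.35. PSRC1 measured 6.36, 6.19 and 6.26 on OE33 siRNA and 5.67, 4.84 and 5.94 on OE33 Control. In OE21 it measured 6.30, 6.53 and 7.04 on siRNA and 7.19, 7.12 and 7.36 on Control. PSRC1 was detected on only 2 of 3 OE33 Control arrays and SEC61A2 on only 2 of 3 OE21 Control arrays. Both lines were separated in the same direction for 76 genes that were lower (0.772%) and 33 that were higher (0.335%). Chosen after their values were seen, PWWP2A had effects of 0.85 in OE33 and 0.61 in OE21, and ENTPD7 had -0.72 and -0.98.

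Of the gene lists, interferon-stimulated genes lay lowest. Of 60 measured members of 69 listed, 59 had a difference below 0, where 49.9% of all genes did, and 26 were at an unadjusted p under 0.05 in that direction, where 3.43% of all genes were. None was called. Their median difference was -0.66, against 0.00 over all genes, made of a median effect of -0.13 in OE33 and 0.53 in OE21. All 60 had an OE21 effect above 0 and 46 had an OE33 effect below 0. The siRNA arrays lay all above Control for 19 members in OE21 (7.74% of all genes did) and all below Control for 7 in OE33 (4.13%).

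ISG20, an exonuclease with antiviral activity, had the lowest difference of the list, at -1.90 (SE 0.46, limma adjusted p = 0.573). It measured 8.68, 9.08 and 8.9999 on OE33 siRNA and 8.91, 10.17 and 8.99 on OE33 Control, against 12.12, 11.98 and 11.32 on OE21 siRNA and 10.70, 10.24 and 10.09 on OE21 Control. Its OE33 effect of -0.44 rests on OE33 Control 2, and without that array the difference was -1.50. USP18, the protease that removes ISG15 from proteins, had a difference of -0.96 (SE 0.24) with both lines separated, by -0.58 in OE33 and 0.38 in OE21. RSAD2, the antiviral enzyme viperin, was at -1.85, SAMD9L at -1.43 and BST2, the tether of budding virions, at -1.35. IFIT2 and IFIT3, which bind foreign RNA, were at -1.14 and -1.19, and the guanylate-binding proteins GBP1 and GBP2 at -1.19 each, with GBP2 at -1.82 without OE21 Control 1. DTX3L, a ubiquitin ligase, was the single member above 0, at 0.15, and was at -0.13 without OE21 Control 3.

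The mean level of the interferon list separated the groups in OE33 and not in OE21. This level, relative to the mean of the line, was -0.10, -0.08 and -0.06 on OE33 siRNA and -0.04, 0.23 and 0.05 on OE33 Control, so that all OE33 siRNA arrays lay below all OE33 Control arrays. In OE21 it was 0.49, 0.51 and -0.07 on siRNA and 0.07, -0.68 and -0.32 on Control. OE21 siRNA 3 therefore lay below OE21 Control 1, and the range of the OE21 Control arrays exceeded the step between the group means. The OE21 levels also followed the division that crosses the siRNA label, with siRNA 1, siRNA 2 and Control 1 above siRNA 3, Control 2 and Control 3, and the part of that division in the result was not tested. Leaving out each array in turn kept the median between -0.82 and -0.53.

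**Figure D4:**
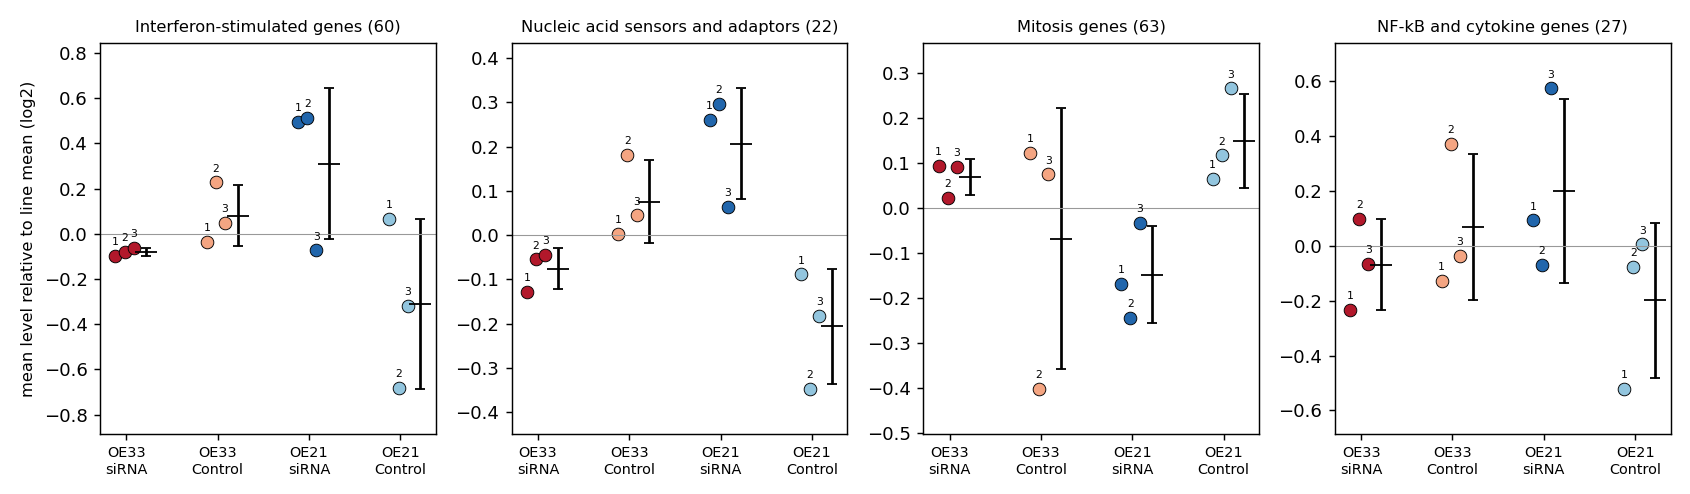
Mean level of 4 gene lists on each array, relative to the mean of the line (vertical axis, log2), by group with replicate numbers; the bar beside each group is the mean with its SD (n = 3). Sensors and adaptors are the only list of the 4 whose siRNA and Control arrays do not overlap in either line. OE33 Control 2 is the OE33 array farthest from 0 in all 4 lists, lowest in mitosis genes and highest in the other lists.

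The promoters of the interferon list are shown because they carry a shared element. The core of the ISRE, GAAA and GAAA with 2 bases of any kind between them, searched on both strands in the 250 bases before the first listed start, was found in 25 of 49 members with a RefSeq promoter (51%). It was found in 2.47% of 8049 tested genes and in 3.07% of all 27305 promoters of that table. The median difference was -0.67 in members with the core and -0.59 in those without. In the stretches of 100 bases below (GRCh38.p14, 5′ to 3′ on the gene's strand), capitals mark the core or its reverse complement, and overlapping matches run together. They lie before the starts of ISG20 (chr15:88638902-88639001, + strand), of IFIH1, which encodes the sensor MDA5 (chr2:162318786-162318885, - strand), and of GBP1 (chr1:89065281-89065380, - strand). Chosen were the 3 members of smallest p, detected on at least 2 of 3 arrays of every group, whose promoter holds the core. IRF1 and BATF2 had a smaller p than GBP1 and held 0 cores.
ISG20: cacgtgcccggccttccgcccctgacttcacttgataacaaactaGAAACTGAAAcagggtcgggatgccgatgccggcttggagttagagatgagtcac
IFIH1: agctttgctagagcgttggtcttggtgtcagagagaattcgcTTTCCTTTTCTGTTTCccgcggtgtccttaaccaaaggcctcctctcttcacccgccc
GBP1: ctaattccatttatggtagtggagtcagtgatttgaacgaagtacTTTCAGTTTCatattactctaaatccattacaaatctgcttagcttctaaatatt

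Sensors of double-stranded RNA and DNA with their adaptors, 10 of whose genes are also in the interferon list, had 19 of 22 members below 0 and a median difference of -0.64, from -0.13 in OE33 and 0.41 in OE21. IFIH1 measured 8.24, 8.17 and 8.44 on OE33 siRNA and 8.49, 8.57 and 8.41 on OE33 Control, against 10.56, 10.58 and 9.98 on OE21 siRNA and 10.00, 9.29 and 9.45 on OE21 Control. Its difference was -0.996 (SE 0.29), with overlap in both lines. DHX58, a regulator of these sensors, was at -1.32, STING1, the adaptor of DNA sensing, at -0.79, MAVS, the adaptor of RIG-I and MDA5, at -0.65 (-0.43 without OE21 Control 3) and the receptor TLR3 at -0.40 (0.08 without OE33 Control 1). IRF3, TRAF3 and CGAS lay above 0, at 0.08, 0.27 and 0.03. Without single arrays IRF3 and CGAS also fell on the other side of 0, and TRAF3 was between 0.10 and 0.46. The mean level of this list was -0.13, -0.06 and -0.04 on OE33 siRNA against 0.00, 0.18 and 0.04 on OE33 Control, and 0.26, 0.30 and 0.06 on OE21 siRNA against -0.09, -0.35 and -0.18 on OE21 Control. The groups did not overlap in either line.

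NF-kB and inflammatory cytokine genes had 24 of 27 members below 0 and a median difference of -0.55 (-0.12 in OE33, 0.37 in OE21), with 7 at an unadjusted p under 0.05 and lower in OE33, where 3.43% of all genes were. With array weights the median was -0.25, and 16 of 27 lay below 0. CCL5, a chemokine for T cells, was at -0.93 (SE 0.27) with effects of 0.00 and 0.94, and the neutrophil chemokines CXCL1 and CXCL8 at -1.34 and -1.08. The feedback inhibitors NFKBIA and TNFAIP3 were at -0.55 and -0.97, and NFKBIB was at 0.53. CXCL1 was at -0.88 without OE21 Control 3, which measured 7.17 against 8.63 and 8.46 on the other OE21 Control arrays, and CXCL8 was at -0.53 without OE21 siRNA 3.

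Antigen presentation genes had 21 of 23 members below 0 with a median of -0.25. At an unadjusted p under 0.05 were 8.7% of them, against 6.6% of all genes. TAP1, a subunit of the peptide transporter, measured 11.86, 11.89 and 11.61 on OE33 siRNA and 11.78, 12.21 and 11.90 on OE33 Control, against 12.62, 12.72 and 12.33 on OE21 siRNA and 11.95, 11.85 and 11.73 on OE21 Control. Its difference was -0.89 (SE 0.22, limma adjusted p = 0.583), and the OE21 groups were apart while the OE33 groups overlapped. The list median was -0.39 without OE21 Control 1. In OE21 the list's level followed the division that crosses the siRNA label. It was 0.26, 0.24 and -0.09 on siRNA and 0.04, -0.23 and -0.22 on Control. Lysosome and autophagy genes (28 of 34 below 0, median -0.30) were led by the autophagy kinase ULK1 at -1.37 (SE 0.57). That median was -0.19 without OE21 Control 3, and 5.88% of this list was at an unadjusted p under 0.05. The OE21 level of the lysosome list followed the same division. It was 0.14, 0.22 and -0.03 on siRNA and -0.0005, -0.08 and -0.26 on Control.

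Mitosis genes lay highest of the lists. Of 63 measured members 62 had a difference above 0, where 50.1% of all genes did, and 18 were at an unadjusted p under 0.05 in that direction, where 3.16% of all genes were. None was called. The median difference was 0.47, from 0.15 in OE33 and -0.29 in OE21, and 49 members had an effect above 0 in OE33 and below 0 in OE21. The siRNA arrays lay all below Control for 26 members in OE21 (9.46% of all genes did) and all above Control for 3 in OE33 (3.41%). Without OE33 Control 2 the median was 0.28, with 55 of 63 above 0. On that array the list's mean level was -0.40, against 0.12 and 0.07 on the other OE33 Control arrays and 0.09, 0.02 and 0.09 on OE33 siRNA. In OE21 the level was -0.17, -0.24 and -0.03 on siRNA, below the 0.06, 0.12 and 0.27 on Control.

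BUB1, a kinase of the spindle checkpoint, measured 8.92, 9.08 and 8.96 on OE33 siRNA and 9.06, 8.68 and 8.82 on OE33 Control, against 8.12, 7.88 and 8.30 on OE21 siRNA and 8.65, 8.65 and 8.92 on OE21 Control. Its difference was 0.78 (SE 0.21, limma adjusted p = 0.606), with no overlap in OE21. BUB1B, its partner in the checkpoint, was the member separated in both lines in opposite directions, at 0.36 in OE33 and -0.30 in OE21. NEK2, a centrosomal kinase, was at 0.71 (SE 0.20) and CKS2, a subunit of cyclin-dependent kinases, at 0.76 (SE 0.24), and second probes of both had the same sign (0.54 and 0.85). PLK1, the kinase of mitotic entry and exit, was at 0.78, CDK1 at 0.75, MAD2L1 at 0.74 and AURKA at 0.61. Without OE33 Control 2 PLK1 was at 0.46, CDK1 at 0.32 and MAD2L1 at 0.39. The transcription factor FOXM1 was at 0.01 and separase, ESPL1, at -0.06, and both changed sign without single arrays.

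Many mitosis promoters share CCAAT boxes, which are shown for 3 of these genes. Chosen were the members of smallest p, under the same detection limit, whose promoter holds a box. BUB1B had a smaller p than CKS2 and held 0 boxes. CCAAT, searched on both strands in the same window, was found in 41 of 54 members with a promoter (75.9%), in 36% of tested genes and in 33% of all promoters. The cell cycle homology region TTTGAA was found in 29 of 54 (53.7%), 8.61% and 13.6%. The median difference was 0.52 both with and without CCAAT. Capitals below mark CCAAT or its reverse complement before the starts of BUB1 (chr2:110678078-110678177, - strand), NEK2 (chr1:211675622-211675721, - strand) and CKS2 (chr9:89311038-89311137, + strand).
BUB1: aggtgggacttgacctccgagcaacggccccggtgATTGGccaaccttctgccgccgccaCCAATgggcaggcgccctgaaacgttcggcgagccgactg
NEK2: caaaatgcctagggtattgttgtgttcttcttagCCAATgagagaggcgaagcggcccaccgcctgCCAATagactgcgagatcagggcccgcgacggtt
CKS2: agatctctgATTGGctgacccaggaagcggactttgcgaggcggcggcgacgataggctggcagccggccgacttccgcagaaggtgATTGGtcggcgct

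Genes of the G1/S transition and DNA replication had 40 of 46 members above 0 and a median of 0.31 (0.08 in OE33, -0.23 in OE21), with 1 at an unadjusted p under 0.05, 2.17% of the list against 6.6% of all genes. This was CCNA2, the cyclin of S phase, at 0.84 (SE 0.30). The median was 0.13 without OE21 siRNA 2, 0.15 without OE33 Control 2, 0.19 without OE21 Control 3 and 0.50 without OE21 siRNA 3. The list's level in OE21 followed the division of those arrays that crosses the siRNA label: it was -0.22, -0.39 and 0.25 on siRNA and -0.22, 0.30 and 0.27 on Control. Cytosolic heat shock and chaperonin genes had 26 of 31 members above 0 and a median of 0.27, almost all of it from OE21 (-0.01 in OE33, -0.28 in OE21). At an unadjusted p under 0.05 were 6.45% of them, against 6.6% of all genes. In that list PTGES3 measured 10.82, 10.90 and 11.14 on OE33 siRNA and 10.90, 10.36 and 10.75 on OE33 Control, against 10.02, 9.87 and 10.19 on OE21 siRNA and 10.81, 10.66 and 10.76 on OE21 Control. CHORDC1, an HSP90 co-chaperone, was at 0.76 and DNAJB4, a co-chaperone of HSP70, at 0.75, which was 0.44 without OE21 Control 1.

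Textbook STAT3 targets had 20 of 32 members below 0 and a median of -0.21 (-0.10 in OE33, 0.12 in OE21), and 2 at an unadjusted p under 0.05, 6.25% of the list against 6.6% of all genes. These were STAT3 and IRF1, a transcription factor of interferon responses, at -0.64 (SE 0.19). STAT3 is counted in this list and is also the mRNA that the siRNA targets, so its entry cannot be read as the response of a target gene. The median was -0.05 without OE21 siRNA 3, -0.06 without OE33 Control 2 and -0.07 without OE21 Control 1. This list's level in OE21 followed the division that crosses the siRNA label. It was -0.064, -0.056 and 0.214 on siRNA and -0.183, 0.091 and -0.002 on Control. Among targets with roles in survival and growth, BCL2L1 was at -0.16, MCL1 at -0.22, MYC at 0.14 and CCND1 at -0.33. CDKN1A, the inhibitor p21, was at -0.89 (SE 0.42), and at -0.48 without OE33 Control 2. The first 4 of these were small and moved with single arrays, over -0.35 to 0.06 for BCL2L1, -0.43 to 0.07 for MCL1, -0.06 to 0.34 for MYC and -0.56 to -0.02 for CCND1.

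In the list of IL-6 family receptors, Janus kinases and feedback inhibitors, 18 of 25 members lay below 0, with a median of -0.19 and 3 at an unadjusted p under 0.05, 12% of the list against 6.6% of all genes. The median was -0.09 without OE21 Control 1 or OE21 Control 3, -0.10 without OE21 siRNA 3, and -0.12 without OE21 siRNA 2 or OE33 Control 1. The 3 genes were SOCS1, a feedback inhibitor of Janus kinases (-1.01, SE 0.41), IFNLR1, a subunit of the receptor for lambda interferons (-0.99, SE 0.38) and PIAS4, a SUMO ligase (-0.53, SE 0.23). SOCS1 was detected on only 2 of 3 arrays in each OE33 group. The shared receptor subunit IL6ST was at -0.74 (SE 0.56), with 8.22, 8.68 and 8.496 on OE33 siRNA, 8.56, 7.42 and 8.41 on OE33 Control, 8.11, 7.91 and 8.80 on OE21 siRNA and 6.41, 7.99 and 7.20 on OE21 Control. These groups overlapped in both lines, and the difference was -0.35 without OE21 Control 1, -0.48 without OE21 siRNA 3 and -1.13 without OE21 Control 2. IFNLR1 was at -0.62 without OE21 Control 3, and its second probe gave -0.24. JAK1 was at -0.04 (SE 0.30). SOCS3 and JAK2 are not analysed here. Of the other STAT genes measured, STAT5A was at -0.62 (SE 0.47), STAT4 at 0.29, STAT5B at 0.16 and STAT6 at -0.10. Without OE33 Control 2 STAT5A was at -0.24, STAT4 at 0.50 and STAT5B at -0.03, and without OE33 Control 3 STAT4 was at 0.09.

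**Figure D5:**
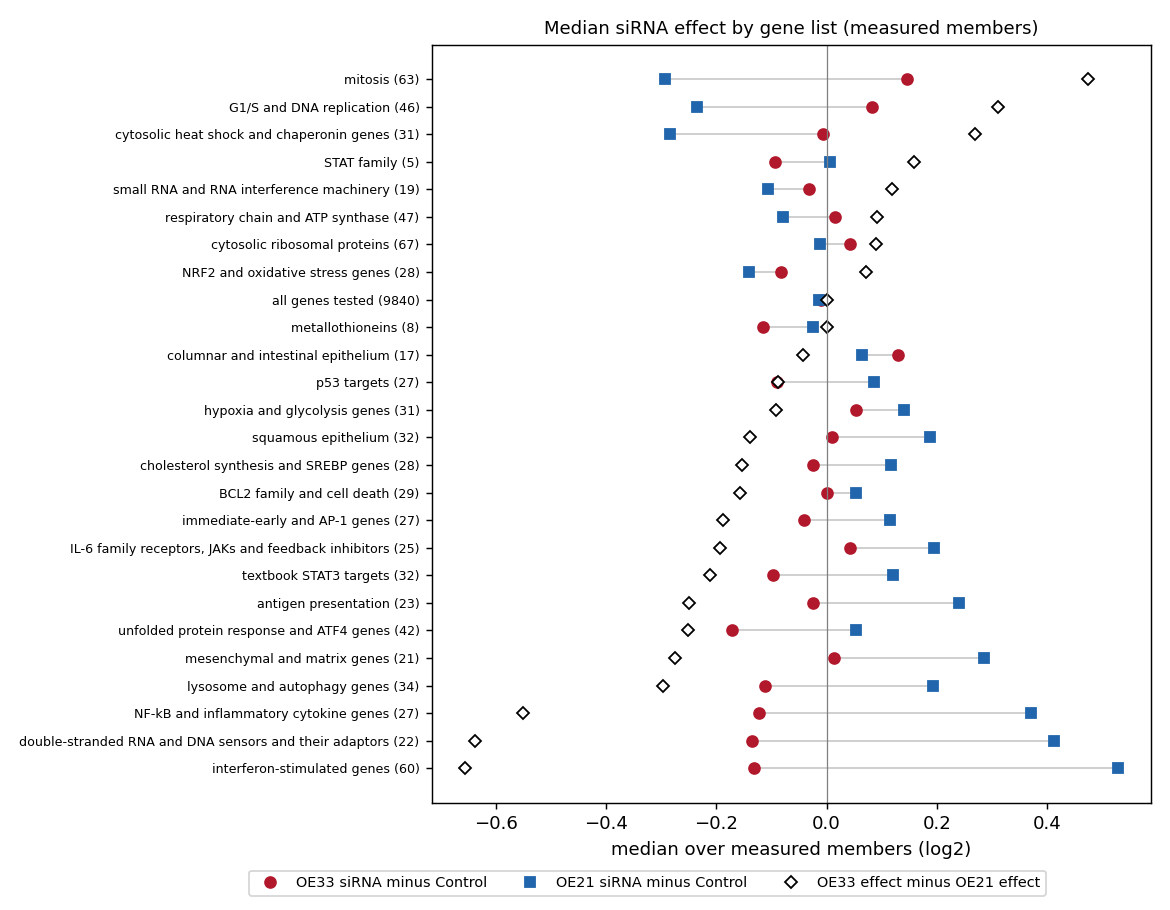
Median siRNA effect in OE33 (circles) and in OE21 (squares) and median difference of effects (diamonds) over the measured members of each gene list, in log2 units on the horizontal axis, with the number of measured members in brackets. Interferon-stimulated genes, sensors and NF-kB genes have the lowest medians (-0.66, -0.64 and -0.55), mitosis genes the highest (0.47), and all genes tested lie at 0.00.

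Unfolded protein response and ATF4 genes had 33 of 42 members below 0 and a median of -0.25, but here the OE33 effect was the larger (-0.17, with 39 of 42 below 0, against 0.05 in OE21). That median was -0.09 without OE33 Control 2, where the list's level was 0.45, against -0.11 and -0.02 on the other OE33 Control arrays. Of this list 2.38% was at an unadjusted p under 0.05, against 6.6% of all genes. Mesenchymal and matrix genes had a median of -0.28 (15 of 21 below 0), which was -0.16 without OE21 Control 1. Their share at an unadjusted p under 0.05 was 4.76%. Immediate-early and AP-1 genes had a median of -0.19, which lay above 0 without OE21 siRNA 3 (0.04), without OE21 Control 1 (0.04) and with array weights (0.20), and was -0.42 without OE21 Control 3, -0.32 without OE21 siRNA 2 and -0.12 without OE33 Control 2. The AP-1 list's level in OE21 followed the division that crosses the siRNA label. It was -0.17, -0.34 and 0.68 on siRNA and -0.51, -0.03 and 0.38 on Control. JUN, an AP-1 subunit, had a difference of -1.09 (SE 0.32) and no overlap in OE21. Genes of small RNA and RNA interference machinery had 12 of 19 members above 0 and a median of 0.12 (-0.03 in OE33, -0.11 in OE21). That median ran from 0.05 to 0.19 without single arrays, and 5.26% of the list was at an unadjusted p under 0.05. AGO2, the Argonaute protein that cleaves siRNA targets, went against the list median and was its lowest member, at -0.77 (SE 0.34). It measured 9.53, 9.23 and 8.97 on OE33 siRNA, below the 9.57, 10.27 and 9.78 on OE33 Control, and overlapped in OE21.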

How the data were processed

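RNA of 12 cultures of cell lines was read on Illumina BeadChips. It was purified on RNeasy Plus columns and converted to biotinylated cRNA, per the labels' protocols. The authors deposited probe intensity on a linear scale, not normalised between arrays, with a detection p-value beside each intensity. The authors also deposited normalised intensity values, which served as an alternative. The steps behind these values and behind the detection p-value were not given in the sources used here. Each of these columns followed its own array (Spearman correlation of at least 0.99996), uncentred, with medians of 106 to 107. Precision is limited by the number of arrays.

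The table held 47323 probes, and 4 lacking a value were dropped. The platform annotation gave 1 symbol to 30111 probes, several to 8 and none to 17200, and 30072 matched the GRCh38.p14 gene table by Entrez identifier, with 0 symbols altered. Intensities were background-corrected and quantile-normalised together by neqc (limma 3.58.1, R 4.3.3, offset 16), which gives log2 values. The log2 values are thus computed from the intensities the authors deposited. For each gene, the probe with the highest mean among those passing the detection limit was used (2487 genes had several). Group means of the 4 groups were fitted in 1 model (8 residual degrees of freedom), and the interaction and both effects were tested with two-sided moderated tests and Benjamini-Hochberg adjustment, called under 0.05. The scripts were tested on simulated data.

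Named genes were STAT3, called genes, the 10 with the smallest p in each direction among 9247 genes detected on at least 2 of 3 arrays of every group, the 6 largest in each opposite pattern, up to 4 members of each list with the smallest p, and IL6ST, JAK1, JAK2 and SOCS3, beside an item that is not reported here. Others were added to describe the lists. The genes, the 29 gene lists and the tests were chosen with earlier results of these data known, so list counts and medians are descriptions. A pairing check used a correlation between siRNA and Control arrays that is not the correlation of levels given above. For same-numbered arrays it was 0.09, 0.36 and 0.14 in OE33 and 0.46, -0.38 and 0.50 in OE21. For differently numbered arrays it ran from -0.31 to 0.22 in OE33 and from -0.73 to 0.64 in OE21. These values overlapped in both lines, and the numbers were not taken to pair arrays. With 3 arrays per group the check cannot exclude pairing, and a fit with replicate number blocked is given below. Promoters are from RefSeq. Alternatives were other background corrections, offsets, normalisations, detection filters, all probes, array weights, a block and each array left out.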

Additional observations from a re-analysis of the deposited data

Results flagged for a closer look

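The mean level of the sensors of double-stranded RNA and DNA was the single list mean for which every siRNA array lay below every Control array in OE33 and above every Control array in OE21. Its siRNA effect in OE33 minus that in OE21 was -0.565 log2 units, and this difference of the mean level was not tested. No pair of arrays held identical values (0 pairs), and groups of 3 arrays were too small for a check of single outlying arrays.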

How the results depend on the processing

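On the probe used for each gene, the direction of the difference was the same under all alternatives for 120 of the 123 named genes. Another probe had the opposite sign for 5 named genes, DENR and CLOCK among them, and without a single array the difference moved by over 1.5 times for 47. With array weights CD14 (0.44) was at -0.60 and CLDN7 (-0.47) at 0.023. Without single arrays CD14 was between -0.38 and 0.89, CLDN7 between -0.75 and 0.0015 and JAK1 (-0.04) between -0.26 and 0.12, with 5 of the JAK1 values above 0. The count called for the difference was 0 except with array weights, which gave 478 (225 higher and 253 lower in OE33, 33 of the interferon list and 9 of the mitosis list). Weights also brought 48 of the named genes under the threshold, among them STAT3 at 1.98 (limma adjusted p = 0.00365). The STAT3 adjusted p ranged up to 0.997, and its difference between 1.32 and 1.93 without single arrays. At an unadjusted p under 0.05 there were 1165 genes with no detection filter, 1068 when all probes were tested (601 higher and 467 lower) and 2706 with array weights, against 649, and 425 to 1084 without single arrays. The OE21 effect, with 15 genes called, had 37 with no background correction, 32 with an offset of 50, 38 in the authors' values, 7 with no detection filter, 25 when all probes were tested, 2250 with array weights, and 0 to 64 without single arrays. With replicate number blocked (replicate block), the difference had 0 genes called, STAT3 had an adjusted p of 0.39, and the OE21 effect had 0. The causes were not tested. In the authors' values the differences of DHX58 (-0.70), USP18 (-0.59), IFNLR1 (-0.59), SOCS1 (-0.49), CHORDC1 (0.47) and BUB1B (0.40) were also smaller by over 1.5 times. Genes detected in a single line were not compared. Fits without background correction and with the authors' values gave STAT3 differences of 1.10 and 1.06.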
